A study of Mus musculus with 8 samples.

Results

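The extracellular ATP and adenosine pathway was described here by 10 genes that were chosen by symbol from the 54532 genes of the deposited table, and all 10 were found. They are Entpd1, Entpd5, Nt5e, Ada, Adk, Adora1, Adora2a, Adora2b, P2rx7 and P2ry2. Their liver mRNA was compared between the METTL3-HKD (n = 4) and METTL3-Flox (n = 4) groups, all collected 6 h into reperfusion after 1 h of ischemia. METTL3-HKD mice carried METTL3 flox/- with Alb-iCre, a recombinase expressed from the albumin promoter and so in hepatocytes, while METTL3-Flox mice were flox/flox littermates. The floxed segment is exon 4, the HKD mice are heterozygous, and other liver cells are not targeted by this Cre. The labels give neither the age nor the sex of these mice, and no sham livers were analysed here. All 8 labels name liver, and 8 of 8 hepatocyte marker genes were detected, with Alb at 18252 FPKM in METTL3-HKD and 18426 FPKM in METTL3-Flox mice.

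Injured cells release ATP, which acts as a danger signal through P2 receptors on neighboring cells. Ectonucleotidases on the cell surface degrade ATP and ADP to AMP and then AMP to adenosine, which acts on its own G protein-coupled receptors, is taken up through nucleoside transporters and is removed by phosphorylation or deamination. In liver, this pathway is known for setting the balance between ATP-driven inflammation and adenosine-mediated protection during ischemia and reperfusion.

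Of the 10 genes, 2 rose in METTL3-HKD mice, namely Entpd1, which encodes the ectonucleotidase CD39, and Adora2b, which encodes the low-affinity adenosine A2B receptor. With limma 0 of the 10 fell past the adjusted threshold, and 1 (Adk) was lower at an unadjusted p under 0.05. Genes were tested on log2(FPKM + 0.1), where FPKM counts fragments relative to gene length and sequencing depth, with limma's moderated test, and a gene was called at an adjusted p under 0.05 (Benjamini-Hochberg over the 16645 genes that averaged 0.1 FPKM or more). All 10 members were above that minimum. By the same rule 15.7% of all tested genes were called, 9.05% higher and 6.63% lower, so that 2 of 10 is near the background. Both called members also passed a log2 fold change of 1, which 4.70% of tested genes did in the upward and 1.52% in the downward direction. Neither call was stable, with Entpd1 past the adjusted threshold in 9 of 18 alternative analyses and Adora2b in 7 of 17. The log2 fold changes of the 10 genes were split into 5 positive and 5 negative, with a median of 0.18 against -0.00 over all tested genes. At an unadjusted p under 0.05, 4 of the 10 stood out (Entpd1, Adora2b, P2ry2 and Adk), against 31.9% of all tested genes.

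**Figure D1:**
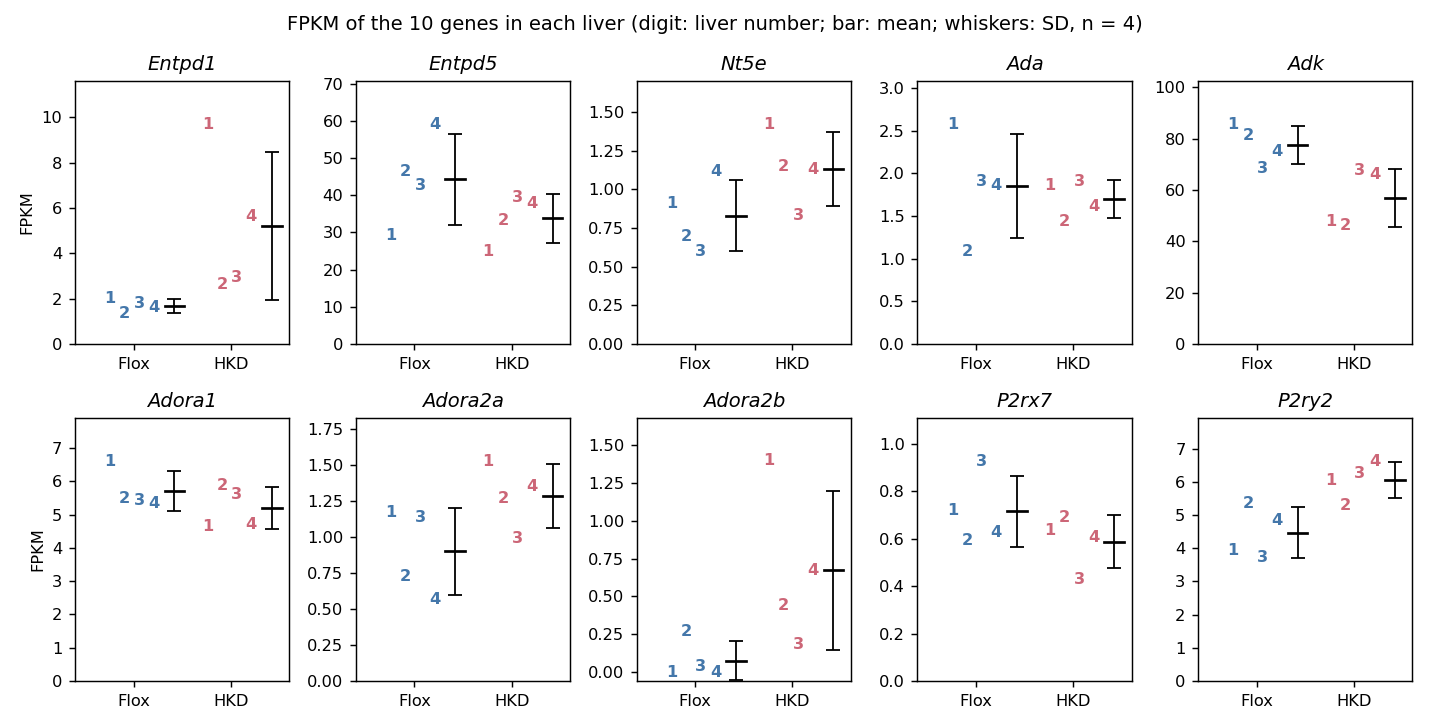
FPKM (vertical axes, linear) of each of the 10 genes in every liver, with METTL3-Flox livers on the left and METTL3-HKD livers on the right. Digits are liver numbers, and the bar and whiskers beside them give mean and SD (n = 4). Entpd1 and Adk are the genes whose groups do not overlap.

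Rebuilt reads on genes lay between 15861245 and 18434488 per liver. The deposited FPKM were already scaled between livers, with effective library sizes relative to their geometric mean of 1.06 to 1.18 in METTL3-HKD and 0.835 to 0.950 in METTL3-Flox livers. Scaling each liver to its reads on genes moved the median log2 fold change of all tested genes to 0.19 and the share of higher genes among those called from 57.7% to 86.0%. Values below use the deposited scaling. Mettl3 itself differed by a log2 fold change of -0.16 ± 0.165 (SE; limma, adjusted p = 0.556), with overlapping groups, so its total level does not show the genotype. In bulk liver, fewer cells of a type and less RNA per cell cannot be told apart.

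The promoters of the 2 genes that rose are shown because their transcripts start there. Each window runs from 250 bases before to 50 bases after a start site of RefSeq on GRCm38.p6, on the plus strand, which is the strand of both genes. Capitals mark the core of the hypoxia-inducible factor site (GCGTG or ACGTG, searched on both strands, so that CACGC is a match on the minus strand). Entpd1 has a pair of start sites in RefSeq, an upstream one on chr19:40612116-40612415 and a downstream one on chr19:40659520-40659819, and Adora2b has a single one on chr11:62248734-62249033.
Entpd1 upstream: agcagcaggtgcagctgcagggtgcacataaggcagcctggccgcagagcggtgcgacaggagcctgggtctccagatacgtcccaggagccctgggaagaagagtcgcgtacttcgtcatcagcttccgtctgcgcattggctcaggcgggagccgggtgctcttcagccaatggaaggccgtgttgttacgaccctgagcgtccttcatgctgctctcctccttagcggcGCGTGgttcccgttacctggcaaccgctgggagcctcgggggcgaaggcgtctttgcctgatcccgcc
Entpd1 downstream: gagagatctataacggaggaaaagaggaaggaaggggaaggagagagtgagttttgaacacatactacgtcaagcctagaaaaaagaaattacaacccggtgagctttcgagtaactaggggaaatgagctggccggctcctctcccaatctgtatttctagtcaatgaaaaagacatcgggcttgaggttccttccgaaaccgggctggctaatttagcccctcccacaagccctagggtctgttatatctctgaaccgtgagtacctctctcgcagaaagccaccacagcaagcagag
Adora2b: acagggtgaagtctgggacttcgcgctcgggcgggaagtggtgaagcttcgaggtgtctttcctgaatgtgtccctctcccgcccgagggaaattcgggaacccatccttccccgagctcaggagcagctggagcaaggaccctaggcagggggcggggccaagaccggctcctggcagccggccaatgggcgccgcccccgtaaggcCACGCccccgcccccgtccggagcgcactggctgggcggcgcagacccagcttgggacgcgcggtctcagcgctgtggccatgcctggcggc
The upstream Entpd1 window held 1 core, 18 bases before the start site, and the Adora2b window held 1 core, 42 bases before it. The downstream Entpd1 window held 0. Such cores are common, since 32.4% of the 32851 promoter windows of RefSeq held GCGTG, 19.6% held ACGTG and 43.8% held either. The AP-1 site (TGANTCA, 7.81% of windows), the full CRE (TGACGTCA, 1.79%) and the NF-kB site (8.46%) had no match in the 3 windows. The Adora2b window was rich in GC (70.0%, with 27 CpG dinucleotides) and held 6 Sp1 boxes (GGGCGG, 35.7% of windows), while both Entpd1 windows held 0. Over the 9 members with a RefSeq window, which exclude Adora2a, 14 windows were available. The core of the hypoxia-inducible factor site also lay in windows of Ada, Adk, Adora1, Entpd5, Nt5e and P2ry2, which were not called, and in no window of P2rx7.

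Entpd1 hydrolyzes ATP and ADP to AMP, the step that ends ATP signaling, and is known from endothelial and immune cells. It lies on chromosome 19 of GRCm38 from 40612366 to 40741602 (ENSMUSG00000048120). It measured 9.66, 2.65, 2.93 and 5.62 FPKM (METTL3-HKD livers 1 to 4) and 2.03, 1.33, 1.78 and 1.61 FPKM (METTL3-Flox livers 1 to 4). The groups did not overlap, with METTL3-HKD above, as in 12.7% of all tested genes, and liver 1 was far above the other METTL3-HKD livers. The mean was 5.21 ± 3.25 FPKM in METTL3-HKD and 1.69 ± 0.294 FPKM in METTL3-Flox mice (SD, n = 4 each), which is a log2 fold change of 1.39 ± 0.372 (SE; limma, adjusted p = 0.0376). Permuting the livers (exact, two-sided) gave p = 0.0286, the smallest that 4 livers against 4 allow. The values rest on 273 to 1084 reads in METTL3-HKD livers, against 120 to 161 in METTL3-Flox livers. The call was lost without METTL3-HKD liver 1 (log2 fold change 1.03, adjusted p = 0.0550 from limma) or 4 (1.29, adjusted p = 0.0825), and without METTL3-Flox liver 1, 2, 3 or 4 (1.48, 1.29, 1.42 and 1.38, adjusted p = 0.0538, 0.0913, 0.0829 and 0.0811).

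Nt5e encodes CD73, which converts the AMP made by CD39 to adenosine. It lies on chromosome 9 from 88327197 to 88372092. It measured 1.42, 1.14, 0.830 and 1.13 FPKM (METTL3-HKD livers 1 to 4) and 0.908, 0.698, 0.596 and 1.11 FPKM (METTL3-Flox livers 1 to 4). The groups overlapped, and the log2 fold change of 0.42 (95% interval -0.08 to 0.92, adjusted p = 0.228 from limma) did not pass. The level of Entpd1 relative to Nt5e, per base of gene length, was 6.82, 2.31, 3.53 and 4.99 in METTL3-HKD livers and 2.24, 1.91, 2.98 and 1.45 in METTL3-Flox livers. These ratios overlapped too, with METTL3-HKD liver 2 inside the METTL3-Flox range.

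Entpd5, on chromosome 12 from 84373857 to 84409029, encodes a relative of CD39 that works mainly on nucleoside diphosphates such as UDP inside the endoplasmic reticulum and has a soluble form. It was the most abundant of the 3 hydrolases, with 24.8, 33.3, 39.3 and 37.7 FPKM (METTL3-HKD livers 1 to 4) and 29.3, 46.3, 42.6 and 58.9 FPKM (METTL3-Flox livers 1 to 4). Liver 1 was the lowest of its group in both groups. The log2 fold change was -0.37 (95% interval -0.86 to 0.13, adjusted p = 0.280 from limma), so a difference in either direction is within its interval.

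The adenosine receptors came at very different levels. Adora1, which couples to inhibitory G proteins, measured 4.63, 5.87, 5.59 and 4.70 FPKM (METTL3-HKD livers 1 to 4) and 6.59, 5.49, 5.41 and 5.35 FPKM (METTL3-Flox livers 1 to 4). It was the most abundant receptor for adenosine in every liver, and its log2 fold change was -0.14 (95% interval -0.40 to 0.13, adjusted p = 0.465 from limma), turning to 0.08 when livers were scaled to their reads on genes. It lies on chromosome 1 from 134199223 to 134235431, and 20.1% of its 5785 exon bases are shared with Mybph on the opposite strand, which was listed at 0 FPKM in all livers.

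Adora2a, the high-affinity receptor that couples to stimulatory G proteins and restrains leukocytes, lies on chromosome 10 from 75316877 to 75334784. It measured 1.53, 1.27, 0.994 and 1.35 FPKM (METTL3-HKD livers 1 to 4) and 1.17, 0.728, 1.14 and 0.568 FPKM (METTL3-Flox livers 1 to 4). METTL3-HKD liver 3 lay below METTL3-Flox livers 1 and 3, so the groups overlapped. The log2 fold change was 0.51 (95% interval -0.03 to 1.05, adjusted p = 0.181 from limma).

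Adora2b, which also couples to stimulatory G proteins and responds to the high adenosine levels of hypoxic tissue, lies on chromosome 11 from 62248984 to 62266453 (ENSMUSG00000018500). It measured 1.40, 0.440, 0.180 and 0.671 FPKM (METTL3-HKD livers 1 to 4) and 0, 0.268, 0.0357 and 0 FPKM (METTL3-Flox livers 1 to 4). These values rest on 52, 15, 6 and 23 reads and on 0, 8, 1 and 0 reads, where a count of 0 allows up to 3 reads or 0.114 FPKM in METTL3-Flox liver 1 and 0.101 FPKM in liver 4. METTL3-Flox liver 2 lay above METTL3-HKD liver 3, and METTL3-HKD liver 1 was again the highest. The mean was 0.673 ± 0.525 FPKM in METTL3-HKD and 0.0760 ± 0.129 FPKM in METTL3-Flox mice (SD, n = 4 each), which is a log2 fold change of 2.11 ± 0.588 (SE; limma, adjusted p = 0.0426), whereas the exact permutation test, two-sided, gave p = 0.0571. At so few reads the size of the change depends on the pseudocount, and was 0.59 (limma, adjusted p = 0.0778) for a pseudocount of 1 FPKM and 3.54 (adjusted p = 0.0398) with voom on the rebuilt reads. The call was lost when any one of METTL3-HKD livers 1, 2 and 4 was left out (log2 fold change 1.71, 2.20 and 2.03, adjusted p = 0.108, 0.0789 and 0.0894 from limma) and when METTL3-Flox liver 1, 3 or 4 was left out (1.92, 2.07 and 1.92, adjusted p = 0.0843, 0.0978 and 0.0987).

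Relative to Adora1, Adora2b stood at 30.2%, 7.49%, 3.22% and 14.3% in METTL3-HKD livers 1 to 4 and at 0%, 4.89%, 0.659% and 0% in METTL3-Flox livers. It lay below Adora2a and Adora1 in 8 of 8 livers, and came closest to Adora2a in METTL3-HKD liver 1, at 91.8% of its level.

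**Figure D2:**
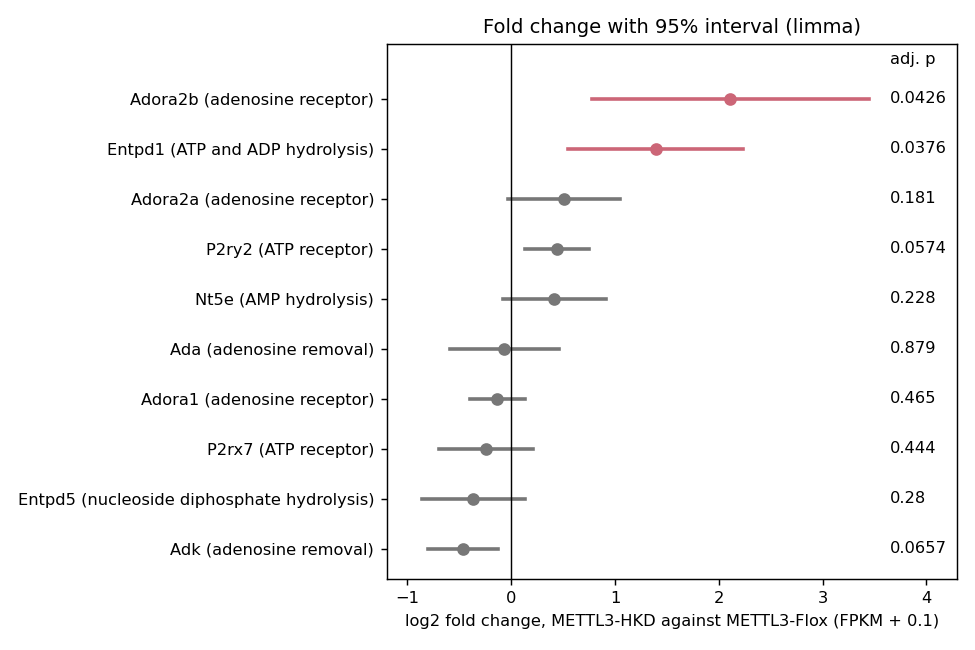
Log2 fold change of each of the 10 genes between METTL3-HKD and METTL3-Flox livers on FPKM + 0.1 (horizontal axis), with its 95% interval from limma and the adjusted p on the right. Colored genes have an adjusted p under 0.05. Adora2b, at 2.11, has the widest interval.

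Adk and Ada encode the enzymes that remove adenosine inside cells, by phosphorylation to AMP and by deamination to inosine. Adk, on chromosome 14 from 21052574 to 21448569 (ENSMUSG00000039197), is the main adenosine-clearing enzyme of hepatocytes. It measured 47.8, 46.4, 67.6 and 66.0 FPKM (METTL3-HKD livers 1 to 4) and 85.4, 81.3, 68.5 and 75.1 FPKM (METTL3-Flox livers 1 to 4). Every METTL3-HKD liver lay below every METTL3-Flox liver, as did 9.95% of tested genes, but the gap between METTL3-HKD liver 3 and METTL3-Flox liver 3 was narrow. The mean was 57.0 ± 11.4 FPKM in METTL3-HKD and 77.6 ± 7.38 FPKM in METTL3-Flox mice (SD, n = 4 each), which is a log2 fold change of -0.46 ± 0.149 (SE; limma, adjusted p = 0.0657), which did not pass, although the exact permutation p was 0.0286. Without METTL3-HKD liver 3 it passed (log2 fold change -0.55, adjusted p = 0.0406 from limma), the only 1 of 18 alternatives in which it did. With livers scaled to their reads on genes, the log2 fold change of Adk shrank to -0.25 (limma, adjusted p = 0.155). Without METTL3-HKD liver 1 it was -0.39 (limma, adjusted p = 0.161).
Ada, on chromosome 2 from 163726584 to 163750239, measured 1.86, 1.43, 1.91 and 1.61 FPKM (METTL3-HKD livers 1 to 4) and 2.57, 1.08, 1.91 and 1.86 FPKM (METTL3-Flox livers 1 to 4). The METTL3-HKD livers all lay inside the METTL3-Flox range. The log2 fold change was -0.07 (95% interval -0.59 to 0.46, adjusted p = 0.879 from limma), at 35 to 75 reads per liver. Its level was 3.90%, 3.09%, 2.82% and 2.44% of that of Adk in METTL3-HKD livers 1 to 4 and 3.0%, 1.33%, 2.78% and 2.48% in METTL3-Flox livers.

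P2ry2 encodes the receptor for ATP and UTP that couples to calcium release and is known from hepatocytes and leukocytes. It lies on chromosome 7 from 100996568 to 101012866. It measured 6.05, 5.29, 6.26 and 6.60 FPKM (METTL3-HKD livers 1 to 4) and 3.94, 5.36, 3.72 and 4.84 FPKM (METTL3-Flox livers 1 to 4). A single crossing, with METTL3-Flox liver 2 just above METTL3-HKD liver 2, kept the groups from separating. The mean was 6.05 ± 0.556 FPKM in METTL3-HKD and 4.46 ± 0.768 FPKM in METTL3-Flox mice (SD, n = 4 each), which is a log2 fold change of 0.44 ± 0.136 (SE; limma, adjusted p = 0.0574) with an exact permutation p of 0.0571. It passed the threshold under 5 of 18 alternatives, among them the omission of METTL3-Flox liver 2 (log2 fold change 0.53, adjusted p = 0.0449 from limma), scaling to reads on genes (0.65, adjusted p = 0.0234) and protein-coding genes only (0.44, adjusted p = 0.0448). With voom on the rebuilt reads it was 0.44 (limma, adjusted p = 0.0515), just outside.
P2rx7, the ATP-gated channel that triggers the inflammasome in macrophages, lies on chromosome 5 from 122643911 to 122691432. It measured 0.633, 0.689, 0.427 and 0.604 FPKM (METTL3-HKD livers 1 to 4) and 0.719, 0.591, 0.926 and 0.624 FPKM (METTL3-Flox livers 1 to 4). The groups overlapped, with a log2 fold change of -0.24 (95% interval -0.70 to 0.21, adjusted p = 0.444 from limma) at 46 to 84 reads per liver.

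On the FPKM scale, which is per gene length, the members of METTL3-Flox mice ranked Adk, Entpd5, Adora1, P2ry2, Ada, Entpd1, Adora2a, Nt5e, P2rx7 and Adora2b from 77.6 down to 0.0760 FPKM. Neighbors in this order overlapped between livers for Adora1 and P2ry2, for Ada and Entpd1, and along Adora2a, Nt5e and P2rx7. In METTL3-HKD mice the mean of Entpd1 stood next to those of P2ry2 and Adora1, between 5.20 and 6.05 FPKM, and that of Adora2b next to P2rx7. Single livers overlapped in each of these cases, with Entpd1 running from 2.65 to 9.66 FPKM. Of the 5 genes with a positive fold change, 4 were highest in METTL3-HKD liver 1 (Entpd1, Nt5e, Adora2a and Adora2b), while P2ry2 was highest in liver 4.

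Among the 10693 or 10694 other tested genes that averaged 1 FPKM or more, those whose centered log2 values followed Entpd1 most closely over the 8 livers were Csf2rb, Tlr4 and Cd53, with a mean absolute difference of 0.12, 0.12 and 0.15 per liver on the log2 scale. For Adora2b they were Ms4a4a, Mir142hg and Slpi, with 0.29, 0.32 and 0.33. These are likenesses of level over livers that fall in 2 groups, given as a description.

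Markers of other cell types moved with the groups. Of the 8 neutrophil markers, 7 were tested and 7 rose, and their summed level was 330 to 1614 FPKM in METTL3-HKD livers against 12.8 to 44.2 FPKM in METTL3-Flox livers, with Ly6g at 2 reads over all METTL3-Flox livers. METTL3-HKD livers 1 and 4, the highest for Entpd1 and Adora2b, were also the highest for this sum, at 1614 and 544 FPKM. That order was not particular to the neutrophil sum. Among METTL3-HKD livers, 1 and 4 were also the highest for the erythroid, cholangiocyte, platelet and stellate cell sums, whereas 1 and 2 were the highest for the monocyte sum. Most of the cholangiocyte sum was Spp1, and Krt19, Krt7, Epcam and Sox9 did not have livers 1 and 4 highest. Dcn was the largest part of the stellate cell sum. It shared that order with Acta2, whereas Lrat, Reln, Des, Colec11 and Pdgfrb did not. Of the 6 monocyte markers, 5 were tested and 4 rose, with sums of 25.2 to 96.5 FPKM against 1.97 to 5.76 FPKM. Of the 8 Kupffer cell and macrophage markers, 4 fell (Clec4f, Vsig4, Timd4 and Cd5l), with sums of 83.2 to 175 FPKM against 164 to 380 FPKM. The 8 sinusoidal endothelial markers had sums of 67.0 to 75.9 FPKM against 71.0 to 80.6 FPKM, and 2 of them fell (Gpr182 and Stab1). Their log2 fold changes were positive for 3 (Pecam1, Cdh5 and Lyve1), none of which passed. Pecam1 was higher in every METTL3-HKD than in every METTL3-Flox liver (log2 fold change 0.39, adjusted p = 0.0729 from limma), as were 12.7% of all tested genes. Of the 5 cholangiocyte markers 4 rose, at 119 to 369 FPKM against 52.5 to 77.6 FPKM. Of the 8 hepatocyte markers 1 fell (Hnf4a), with sums of 22543 to 33620 FPKM against 29125 to 32900 FPKM. Most of these sums was Alb, so they say little about the rest of the list. Of the 8 log2 fold changes, 1 was positive (Fabp1), and the median was -0.47. Of the 5 erythroid markers 4 rose, all of them globin genes, with sums over the list of 185 to 597 FPKM against 48.2 to 107 FPKM. The remaining one, Alas2, went the other way without passing, at a mean of 16.1 against 28.9 FPKM (log2 fold change -0.98, adjusted p = 0.103 from limma). Of the 7 tested stellate cell markers 1 rose and 2 fell, of the 4 tested platelet markers 1 rose, and of the tested T and NK cell (4) and B cell (2) markers 0 passed with limma, also at an unadjusted p under 0.05. The part of these cell types in the levels of Entpd1 and Adora2b was not tested.

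**Figure D3:**
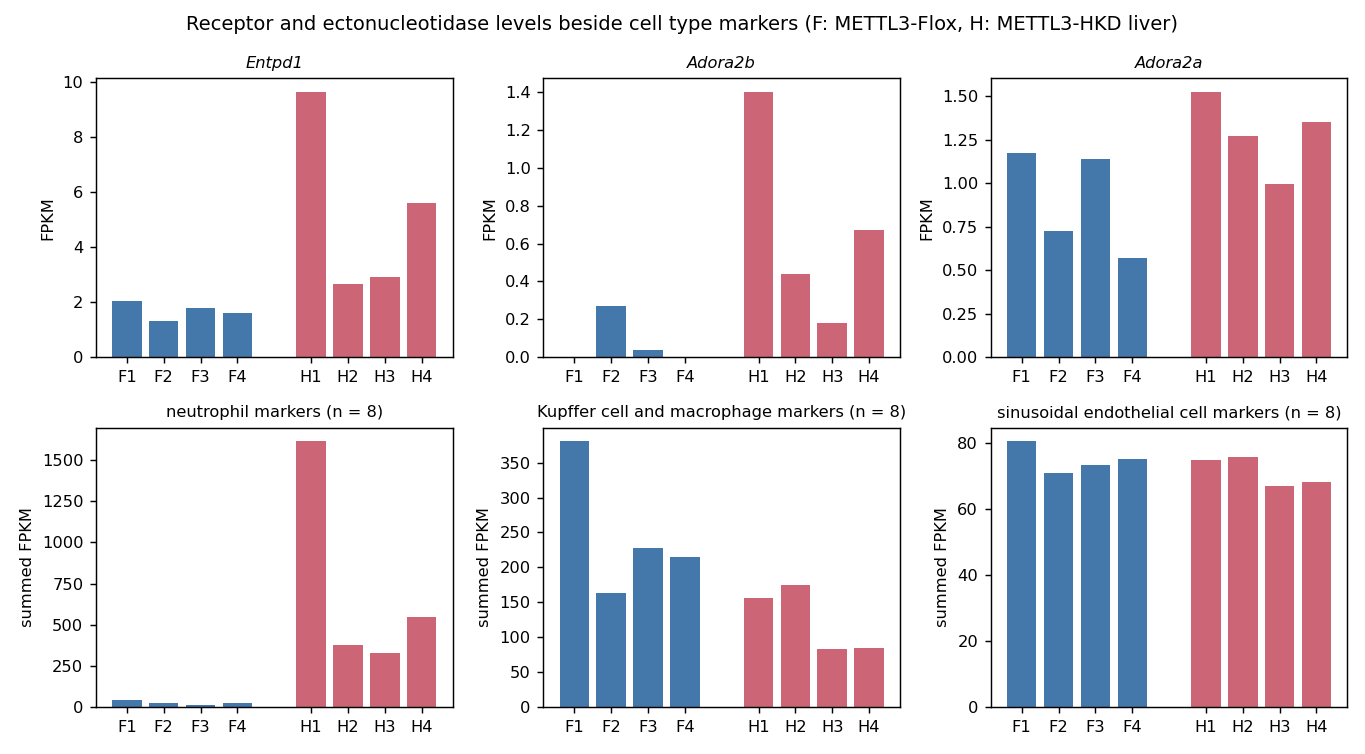
FPKM of Entpd1, Adora2b and Adora2a in each liver (top, linear axes from 0) beside the summed FPKM of neutrophil, Kupffer cell and macrophage, and sinusoidal endothelial markers (bottom, 8 genes each). F1 to F4 are METTL3-Flox and H1 to H4 METTL3-HKD livers. METTL3-HKD liver 1 is the highest for Entpd1, Adora2b, Adora2a and the neutrophil sum.

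The wider pathway was followed in 58 further genes, of which 44 were tested. Of these 4 rose and 6 fell, or 22.7% called against 15.7% of all tested genes, with a median log2 fold change of -0.10 against -0.00. The 14 untested genes, below the minimum, included Adora3, Panx2, Panx3, Slc28a1 and Slc28a3.

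Of the genes listed under extracellular nucleotide hydrolysis, a list that also holds relatives such as Entpd6, Entpd7 and Enpp2, 1 of 10 tested rose and 3 fell. Entpd8, the ectonucleotidase of the bile canaliculus, measured 12.7, 16.1, 18.9 and 15.7 FPKM (METTL3-HKD livers 1 to 4) and 25.8, 25.8, 27.4 and 26.7 FPKM (METTL3-Flox livers 1 to 4), so the groups lay well apart. Its log2 fold change was -0.75 (standard error 0.117, adjusted p = 0.00707 from limma), and 50 of its exon bases are shared with Noxa1 on the opposite strand. Enpp3, a nucleotide pyrophosphatase that cleaves ATP to AMP and pyrophosphate, fell from 17.5 ± 3.64 to 6.88 ± 1.56 FPKM (SD, n = 4 each), a log2 fold change of -1.34 (limma, adjusted p = 0.00585). Its relative Enpp1 fell from 2.71 ± 0.286 to 1.73 ± 0.280 FPKM (log2 fold change -0.63, adjusted p = 0.0226 from limma), with groups that did not overlap, a call lost without METTL3-HKD liver 2 (-0.64, adjusted p = 0.0520) and without METTL3-Flox liver 2 or 3 (-0.57 and -0.65, adjusted p = 0.0597 and 0.0551), and also with livers scaled to their reads on genes (-0.42, adjusted p = 0.0630). Entpd3, an ectonucleotidase of low level in liver, rose from 0.0399 to 0.277 FPKM, with 0 to 5 reads per METTL3-Flox liver (log2 fold change 1.45, adjusted p = 0.0205 from limma). Its call was lost without METTL3-HKD liver 1 (1.33, adjusted p = 0.0657) or METTL3-Flox liver 3 or 4 (1.31 and 1.38, adjusted p = 0.0556 and 0.0510). The size of the change in Entpd3 depends on the pseudocount too, at 0.30 on the log2 scale for 1 FPKM (limma, adjusted p = 0.0256) and 3.06 with voom on the rebuilt reads (adjusted p = 0.0136).

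Adenosine crosses the plasma membrane through equilibrative transporters, of which Slc29a1 is the most abundant in these livers. It fell, with 11.2, 14.2, 22.0 and 20.4 FPKM (METTL3-HKD livers 1 to 4) against 34.5, 31.6, 31.3 and 30.3 FPKM (METTL3-Flox livers 1 to 4). METTL3-HKD liver 1 was the lowest, and no liver of the groups overlapped. The log2 fold change was -0.96 (standard error 0.200, adjusted p = 0.0166 from limma), and 275 of its exon bases are shared with an antisense transcript listed at a mean of 0.475 FPKM. The remaining 3 tested nucleoside transporters did not pass.

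Among the genes of ATP release, 1 of 6 rose and 1 fell. Gja1, the gap junction protein connexin 43 of non-hepatocytes, measured 3.08, 1.84, 1.71 and 2.39 FPKM (METTL3-HKD livers 1 to 4) and 0.864, 1.04, 0.750 and 0.896 FPKM (METTL3-Flox livers 1 to 4), with a log2 fold change of 1.22 ± 0.197 (SE; limma, adjusted p = 0.00761). Abcc6, a hepatocyte transporter needed for ATP release, fell from 14.7 ± 3.28 to 8.53 ± 1.68 FPKM (log2 fold change -0.77, adjusted p = 0.0295 from limma), but this call was lost without METTL3-HKD liver 1, 2 or 4 (adjusted p = 0.0796, 0.0727 and 0.0639) and without METTL3-Flox liver 2, 3 or 4 (adjusted p = 0.0694, 0.0800 and 0.0740), and its groups overlapped. Abcc6 was also not called with livers scaled to their reads on genes (-0.55, limma, adjusted p = 0.106) or without the mean-variance trend (-0.77, adjusted p = 0.0508). Gjb1, the main connexin of hepatocytes, had a mean of 250 against 322 FPKM with groups that did not overlap, and did not pass (adjusted p = 0.0513 from limma). The channel Panx1 was at 0.199 against 0.191 FPKM.

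Of the other P2 receptors, 0 of 2 tested P2X and 0 of 6 tested P2Y genes passed with limma (1 and 2 at an unadjusted p under 0.05), with adjusted p values from 0.108 for P2ry4 to 0.963 for P2rx4. P2rx4, the most abundant of them, was at 7.53 ± 0.894 FPKM against 7.46 ± 0.786 FPKM (SD, n = 4 each).
Inside cells, 2 of 16 tested genes listed under adenosine and purine turnover rose and 1 fell, though the list also held a pyrimidine nucleotidase gene. Gda, guanine deaminase, rose from 5.46 ± 1.38 to 11.6 ± 3.09 FPKM (log2 fold change 1.07, adjusted p = 0.0143 from limma), and the pyrimidine nucleotidase gene Nt5c3 from 4.63 ± 0.300 to 8.16 ± 1.83 FPKM (0.78, adjusted p = 0.0147). Aprt, which salvages adenine, fell from 31.7 ± 2.57 to 23.9 ± 1.54 FPKM (-0.40, adjusted p = 0.0206 from limma), though not with livers scaled to their reads on genes (-0.19, adjusted p = 0.330), nor without METTL3-HKD liver 2 (adjusted p = 0.0569) or METTL3-Flox liver 2 or 4 (adjusted p = 0.0531 and 0.0555). Ahcy, which releases adenosine from S-adenosylhomocysteine and was the most abundant of the list, was at 501 ± 12.7 against 536 ± 58.0 FPKM (adjusted p = 0.637 from limma).

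**Figure D4:**
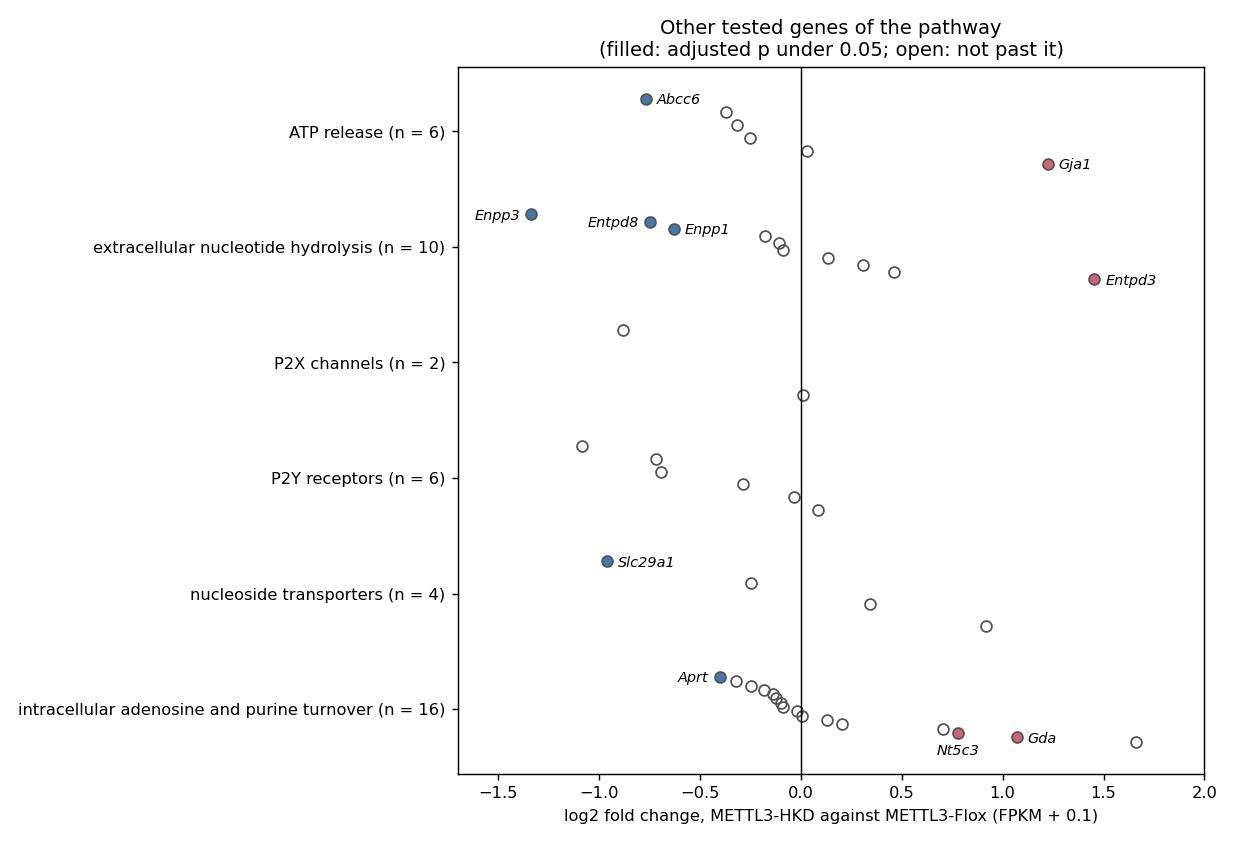
Log2 fold change (horizontal axis, FPKM + 0.1) of the 44 other tested genes by class, 1 point per gene. Filled points, named, have an adjusted p under 0.05, red for higher and blue for lower in METTL3-HKD livers. Of the filled points, 4 lie right and 6 left of 0.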

How the data were processed

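RNA of 8 livers was sequenced. Per the labels, RNA was extracted with an RNeasy kit and libraries were made with a SMARTer mRNA-Seq kit. The authors deposited FPKM per gene for each liver, and their processing notes name GRCm38 (mm10). The aligner, counter, annotation and strand setting are not given in the sources used here. The members and gene lists were chosen with earlier results of these data known. Genes that averaged 0.1 FPKM or more were tested on log2(FPKM + 0.1) with limma 3.58.1 (R 4.3.3, mean-variance trend, both groups, no covariate) and Benjamini-Hochberg adjustment, and single values with exact permutation tests (scipy 1.17.1). Reads were rebuilt from FPKM and gene length, and 100% were whole within 0.02. The labels do not tie livers across groups, and p-values measure the spread between these mice. Named were the 10 members, Mettl3, pathway genes with an adjusted p under 0.05 or that define the level of a class, and the 3 genes closest to each called member. Alternatives varied the pseudocount, minimum, trend, weights, scaling, gene set, model (voom, added after seeing the data) and replicate block, and left out each liver. The test was checked on simulated data, with changes set only in genes that averaged 1 FPKM or more. Changes at lower levels, such as those of Adora2b and Entpd3, were not simulated.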

Additional observations from a re-analysis of the deposited data

Results flagged for a closer look

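Among 42 groups of 4 livers checked over 21 genes, 3 held a liver far from the others by Dixon's criterion, which chance meets in about 5% of groups. Adora1 stood at 6.59 FPKM in METTL3-Flox liver 1, with the other METTL3-Flox livers at 5.35 to 5.49 FPKM. Adora2b stood at 0.268 FPKM in METTL3-Flox liver 2, with the others at 0 to 0.0357 FPKM. Gda stood at 7.54 FPKM in METTL3-Flox liver 2, with the others at 4.72 to 4.84 FPKM.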

How the results depend on the processing

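Both calls among the members were lost with a pseudocount of 1 FPKM, without a minimum and without the mean-variance trend (0 members higher in each). With single livers left out, 0 to 2 members were higher and 0 to 1 lower. Entpd1 was past the threshold in 9 of 18 alternatives and Adora2b in 7 of 17. Among these alternatives, scaling livers by their median ratio to the mean of each gene gave a factor of 1.006 in every liver. The deposited values were thus already scaled in that way, and this alternative nearly repeats the main fit. Over all genes, 1506 were higher and 1104 lower. These counts became 2304 and 374 with livers scaled to their reads on genes, 682 lower without a minimum, and 747 to 1659 higher and 355 to 1148 lower with single livers left out. With a log2 fold change of at least 1 as well, 782 higher and 253 lower became 317 and 88 with a pseudocount of 1 FPKM, 450 higher with a minimum of 1 FPKM, 163 lower without a minimum, 133 lower with scaling to reads on genes, and 492 to 960 higher and 94 to 341 lower with single livers left out. Of the other pathway genes, 3 in place of 6 fell with scaling to reads on genes, and 3 to 7 with single livers left out. The log2 fold change of Ada turned to 0.14 with that scaling and ran from -0.29 to 0.10 with single livers left out, being positive without METTL3-Flox liver 1 (0.10) or METTL3-HKD liver 2 (0.01). That of Adora1 turned to 0.077 and that of Mettl3 to 0.047 with that scaling. A voom fit on rebuilt reads was planned with a scaling made for counts. It was run and called Entpd1, Adora2b and P2ry2 higher, but it was then withdrawn because the deposited values are FPKM, and it is in no count here. The voom fit in its place, with the library sizes implied by the deposited FPKM, was chosen after seeing the data and called Entpd1 and Adora2b. The causes were not tested. Livers with the same number did not deviate together over all tested genes (r from -0.08 to 0.07). The labels do not say whether the numbers pair livers, and so few livers cannot exclude it. With the replicate number as a block, 971 genes were higher and 645 lower, 1 member (Entpd1) was called, and Enpp1 was not (adjusted p = 0.0600 from limma).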

Other observations

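METTL3 belongs to the complex that writes N6-methyladenosine, often within the letters GGACT. In the longest coding transcript of each member, GGACT occurred 4 times in Adora2b, 8 times in Entpd1, 6 times in P2ry2, 7 times in Nt5e and Entpd5, 5 times in Adora1, 4 times in P2rx7, 2 times in Ada, and once in Adk and Adora2a. Per kilobase the members ranked Adora2b (2.17), P2ry2 (1.99), Entpd1 (1.90), Nt5e (1.75), Entpd5 (1.41), Ada (1.18), Adora1 (1.01), P2rx7 (0.810), Adk (0.550) and Adora2a (0.385), against a median of 1.05 over 13104 tested coding genes. P2ry2 and Nt5e, which were not called, thus lay beside the called Adora2b and Entpd1. A match of these letters is a description and does not show that the base is methylated.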
